A study of Homo sapiens with 19 samples.

Results

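Apolipoproteins are the proteins that give lipoprotein particles their structure and direct their traffic between tissues. MTTP, the large subunit of the microsomal triglyceride transfer protein, loads lipid onto APOB in the endoplasmic reticulum. The 10 genes described here are APOA1, APOA2, APOA4, APOB, APOC1, APOC3, APOE, APOH, APOM and MTTP, each matched by its Ensembl identifier among the 32703 gene identifiers listed in all 19 libraries. Liver and intestine are the organs that assemble APOB particles, hepatocytes as VLDL and enterocytes as chylomicrons. In both cell types a particle cannot leave the cell unless MTTP has lipidated APOB. APOA1 and APOA2 are the main proteins of HDL, APOA4 is in humans mainly an intestinal protein, and APOE is also made by many cell types outside the liver and gut.

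The samples were human liver organoids grown from W01, a wild-type human pluripotent stem cell line from WiCell. Single cells were captured in droplets and the 3′ ends of their transcripts were sequenced (10x Genomics, version 3 kit). Organoids in ultra-low attachment (ULA) plates were untreated and sampled on day 21 (n = 3 libraries) and day 34 (n = 2). The other 7 groups, of 2 libraries each, were cultured on an orbital shaker (OS) and taken on day 25. They were untreated, TGFB1 (transforming growth factor β1, 10 ng/ml) and its control, PA (500 µM) and its control, and OA (500 µM) and its control. The treatment protocol, which names TGFB1 and PA but not OA, gives 20 days of culture and then 5 days of treatment. The labels leave PA and OA unexpanded and do not say what the control cultures received. All groups come from 1 cell line. The labels do not say whether replicates were separate cultures, so p-values measure only the spread between these libraries.

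Barcodes were kept if they had 500 or more genes and no more than 20% of their counts from mitochondrial genes, which left 3089 to 12427 cells and 6880807 to 91184130 UMIs (unique molecular identifiers, counted transcript tags) per library. The median depth per kept cell ran from 1310 UMIs in replicate 1 of the TGFB1 control to 14304.5 in replicate 1 of ULA day 34. At most 0.581% of the cell barcodes of a library were shared with another library. Levels are given as CPM, the UMIs of a gene summed over the kept cells of a library and scaled to 1000000 UMIs over the genes listed in all matrices. In such sums, fewer cells of a type and less RNA per cell cannot be told apart. The TGFB1, PA and OA experiments each had their own control, and the matrices of the OA, OA control and untreated OS libraries name a later software version and list more genes than those of the other OS libraries. The OS and ULA day 34 organoids had 10 more minutes of trypsin, which the ULA day 21 organoids did not. A level set across experiments, or between ULA and OS, therefore also carries those differences. The libraries were checked against marker lists for the labelled tissue. All 15 hepatocyte markers were detected in every group, with a summed level of 90.5 to 694.1 CPM on ULA day 34 and 1460 to 23016 CPM in the other groups.

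Of the 10 genes, 3 lie within 16923 bases on chromosome 11 (GRCh38, GENCODE v44), in the order APOA4 (116820700 to 116823304, minus strand), APOC3 (116829706 to 116833072, plus strand) and APOA1 (116835751 to 116837622, minus strand). APOE (44905791 to 44909393) and APOC1 (44914247 to 44919349) are neighbours on the plus strand of chromosome 19. APOA2 lies on chromosome 1 (161222292 to 161223631, minus strand) and APOB on chromosome 2 (21001429 to 21044073, minus strand). MTTP lies on chromosome 4 (99564081 to 99623997, plus strand), APOM on chromosome 6 (31652416 to 31658210, plus strand) and APOH on chromosome 17 (66212033 to 66256525, minus strand). APOA1, APOA4, APOM and MTTP overlap a listed gene on the other strand, namely APOA1-AS, ENSG00000285513, BAG6 and ENSG00000248676. APOB overlaps ENSG00000280390 on the other strand, and APOE and APOC1 overlap ENSG00000280087 on the same strand, both listed only in the ULA matrices. Whether the counting used strand is not given in the sources used here.

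Promoter sequences are shown for 3 genes that rose with OA, 2 with and 1 without a motif of the kind that nuclear receptors such as HNF4A bind. The RefSeq promoter table (GRCh38.p14) held entries for 7 of the 10 genes, and none for APOA1, APOB or APOC3. The 250 bases before each annotated start were searched on both strands for AAAGTCCA and AAAGGTCA, and no window of these genes held both. Of 35116 promoters of that length in the table, 0.98% held AAAGTCCA, 1.05% held AAAGGTCA and 2.02% held either. The windows below are printed 5′ to 3′ on the strand of the gene, with a match in capitals. They are APOA4 at chr11:116823305-116823554 (minus strand), the second of 2 annotated MTTP starts at chr4:99574574-99574823 (plus strand) and APOA2 at chr1:161223629-161223878 (minus strand).
APOA4: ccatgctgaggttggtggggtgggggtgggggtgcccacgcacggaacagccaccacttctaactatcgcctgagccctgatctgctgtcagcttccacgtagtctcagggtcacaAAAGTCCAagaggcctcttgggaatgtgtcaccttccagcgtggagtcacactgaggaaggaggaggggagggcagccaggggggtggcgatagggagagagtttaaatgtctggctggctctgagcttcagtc
MTTP: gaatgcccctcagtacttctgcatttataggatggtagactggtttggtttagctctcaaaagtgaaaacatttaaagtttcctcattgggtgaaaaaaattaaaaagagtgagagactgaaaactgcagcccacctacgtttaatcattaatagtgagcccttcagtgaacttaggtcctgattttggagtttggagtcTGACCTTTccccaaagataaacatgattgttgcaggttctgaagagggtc
APOA2: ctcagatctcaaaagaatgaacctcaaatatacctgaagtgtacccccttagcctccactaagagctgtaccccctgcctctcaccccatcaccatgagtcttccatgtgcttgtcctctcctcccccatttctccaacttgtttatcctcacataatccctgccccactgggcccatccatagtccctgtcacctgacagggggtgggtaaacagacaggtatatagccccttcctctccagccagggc
The APOA4 window held AAAGTCCA on the gene's strand with its first base 134 bases before the start. The MTTP window held AAAGGTCA on the other strand, 50 bases before the start. APOA2 held neither motif, nor did the window of the first MTTP start or any window of APOM, APOE, APOC1 or APOH. A match is a run of letters and does not show a bound factor. The libraries count the 3′ ends of transcripts and do not tell which MTTP start was used.

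The plot of levels by library shows each gene in all 9 groups. Summed over the 10 genes, the share of all UMIs was 1.65% in both OA libraries against 0.236% and 0.179% in the OA control. The PA libraries held 0.541% and 0.471% against 0.482% and 0.331% in their control. In the TGFB1 libraries the share was 0.136% and 0.134%, against 0.125% and 0.163% in the control. APOE made up most of the sum in these libraries, at 1171 and 1172 CPM with TGFB1 and 881.1 and 1249 CPM in the control. The share can therefore hide changes of the other genes. The untreated OS libraries held 0.23% and 0.289%, the ULA day 21 libraries 0.26% to 0.303%, and the ULA day 34 libraries 0.109% and 0.227%. On ULA day 34 APOE, at 1027 and 1943 CPM, made up most of the sum too. The OA group had the highest mean of all 9 groups for 8 of the 10 genes, and for 7 of them both its libraries lay above every library of the next group in the order of means. The exception was APOC1, whose OA libraries overlapped the untreated group. The share of all genes with this order of groups was not computed. In edgeR's test of OA against its control, 21.7% of all genes tested were called higher. APOE was lowest with OA and highest with PA, and APOH was highest in the PA control.

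**Figure D1:**
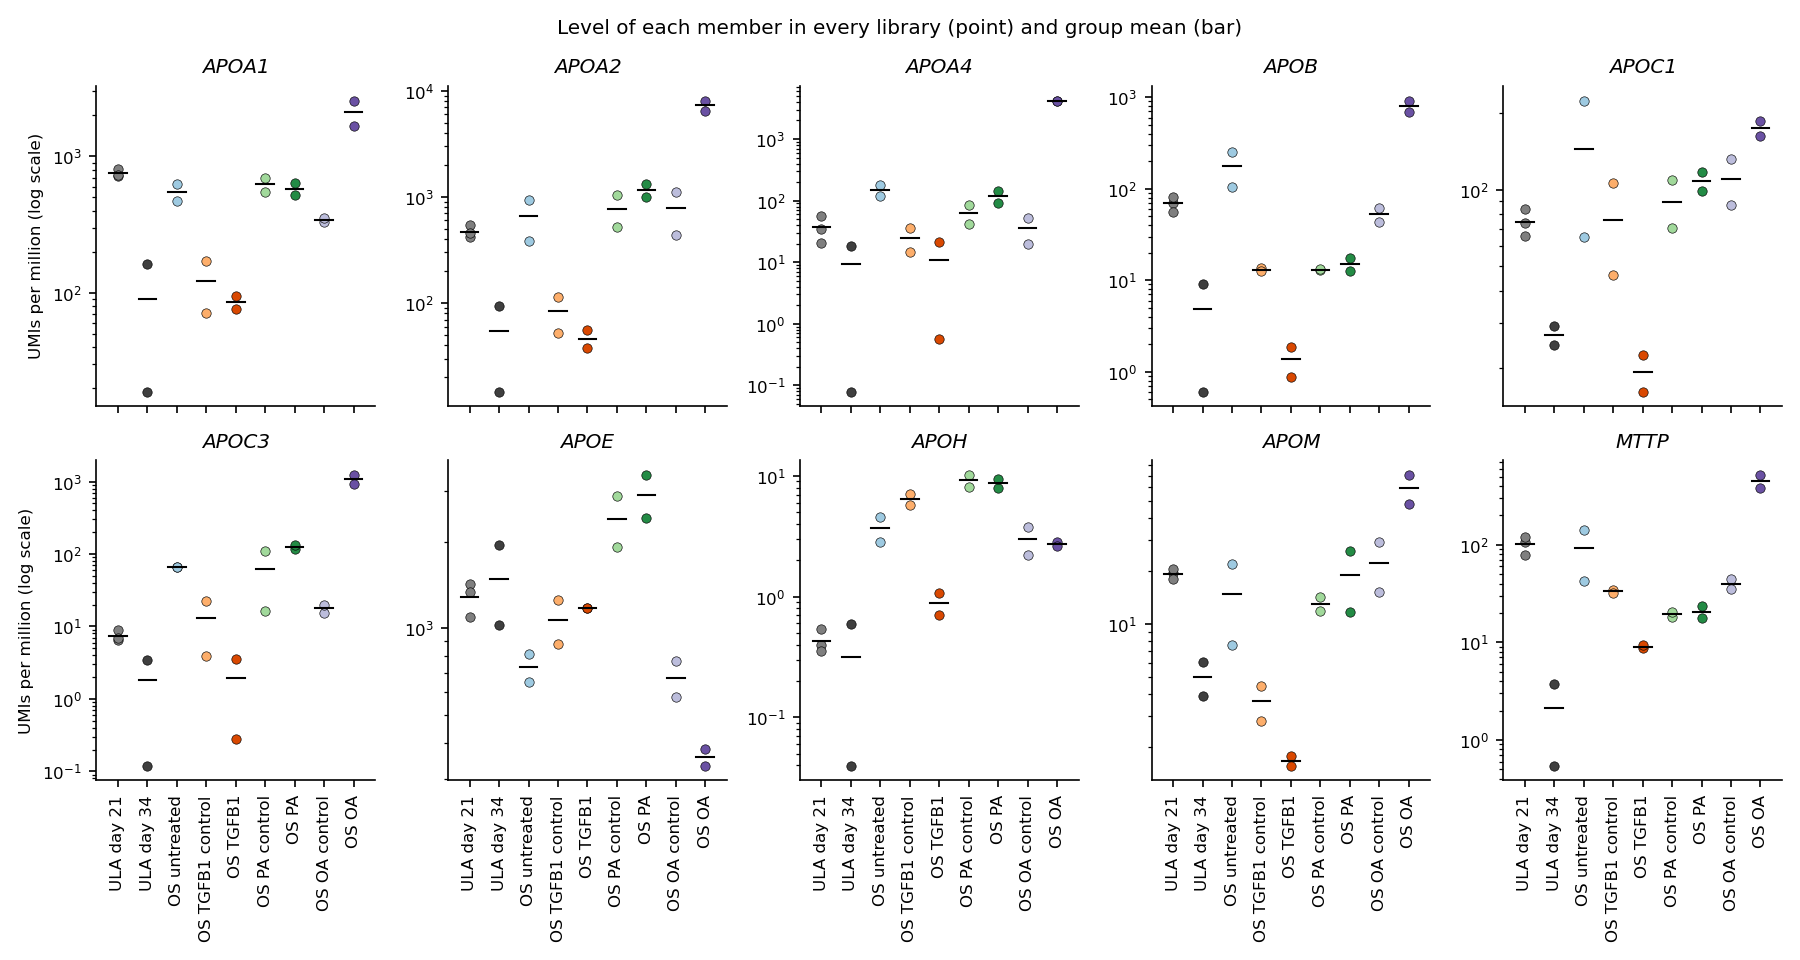
CPM (log axis) of the 10 genes in every library (points) of the 9 groups, with the group mean as a bar. The OA libraries lie above all others for APOA1, APOA2, APOA4, APOB, APOC3, APOM and MTTP, and below all others for APOE.

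OA was followed by higher levels of most of these genes: 7 of 10 rose and none fell in edgeR's quasi-likelihood test at an adjusted p under 0.05. OA changed much of the transcriptome, with 43.3% of 19366 genes called, of which 21.7% of all genes tested rose and 21.6% fell. The median log2 fold change of the 10 genes was 3.24, against -0.08 over all genes tested. The genes that rose carry HDL (APOA1, APOA2, APOM), chylomicrons (APOA4, APOC3) or assemble APOB particles (APOB, MTTP).

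The APOB particle genes went up together. APOB, the non-exchangeable backbone of VLDL and chylomicrons, was at 921.1 and 685.7 CPM with OA and at 62.33 and 43.64 CPM in the control. Its log2 fold change was 4.25 ± 0.469 (SE), or 19-fold (adjusted p = 1.9e-05). MTTP was at 520.4 and 385.3 CPM with OA and at 44.43 and 34.87 CPM in the control. The groups did not overlap for either gene. The log2 fold change of MTTP was 3.84 ± 0.469, or 14.4-fold (adjusted p = 4.1e-05).

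Among the HDL proteins, APOA1, the main structural protein of HDL and a cofactor of the enzyme LCAT, was at 2566 and 1658 CPM with OA and at 329 and 356.7 CPM in the control. This was a log2 fold change of 2.97 ± 0.401, or 7.82-fold (adjusted p = 8.4e-05). APOA2, the second protein of HDL, was at 6454 and 8072 CPM with OA, and its 2 control libraries were at 1118 and 442.6 CPM. Its log2 fold change was 3.52 ± 0.603 (adjusted p = 4.8e-04), and 4.45 without replicate 1 of the control. APOM, which carries sphingosine-1-phosphate on HDL, was at 70.6 and 47.96 CPM with OA and at 29.46 and 15.24 CPM in the control. Here the groups lay closest among the genes that rose, with a log2 fold change of 1.72 ± 0.514 (adjusted p = 0.016). The APOM call was lost without replicate 1 of OA (1.40, adjusted p = 0.101) and without replicate 2 of the control (1.27, adjusted p = 0.142). Without replicate 1 of the control it was 2.38.

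The exchangeable proteins differed among themselves. APOA4 was at 4214 and 4192 CPM with OA and at 52.81 and 19.91 CPM in the control. The OA libraries were nearly equal and the control libraries differed. Its log2 fold change was 7.15 ± 1.24 (142-fold, adjusted p = 5.1e-04), and 8.14 without replicate 1 of the control. APOC3, which inhibits lipoprotein lipase and slows the clearance of triglyceride-rich particles, was at 1235 and 915.2 CPM with OA and at 15.42 and 20.05 CPM in the control. The log2 fold change was 6.27 ± 1.12 (77.3-fold, adjusted p = 6.3e-04). APOC1, a small protein of HDL and VLDL, was at 161.9 and 186 CPM against 132.3 and 87.15 CPM. Its groups did not overlap but the change did not pass the test (log2 fold change 0.98 ± 0.503, adjusted p = 0.133).

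APOE, the ligand through which cells take up remnant particles, was at 332.8 and 380.4 CPM with OA and at 574.9 and 767.6 CPM in the control. In all kept cells it was the only one of the 10 with a log2 fold change below 0 (-0.56 ± 0.301, adjusted p = 0.148). It did not pass the test. APOH, a phospholipid-binding plasma glycoprotein, was at 2.837 and 2.612 CPM with OA, inside the control range of 2.195 to 3.758 CPM, on 122 to 197 UMIs per library. Its log2 fold change was 0.23 ± 0.296 (adjusted p = 0.562).

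Markers of other cell types moved with this comparison. The summed level of 12 gut epithelial markers was 7780 to 10305 CPM with OA and 499 to 751.2 CPM in the control, and all 12 were detected in both groups. The 12 mesenchymal markers summed to 131.9 to 173.7 CPM with OA and 3137 to 5177 CPM in the control. The 15 hepatocyte markers summed to 13796 to 14853 CPM with OA and 8669 to 11627 CPM in the control. ALB, the albumin gene, rose (log2 fold change 5.38 ± 0.569, adjusted p = 1.4e-05), AFP, the fetal albumin-like gene, rose (3.78 ± 0.271, adjusted p = 1.2e-06), and the collagen gene COL1A1 fell by 5.85 on the log2 scale (adjusted p = 1.0e-06). AFP, which is on the hepatocyte list, was at 5871 and 4517 CPM with OA and at 457.5 and 505.1 CPM in the control. The hepatocyte sum therefore does not show a rise of the rest of that list. The part of these cell type markers in the whole-library result was not tested. The values by cluster and by class of cells that follow bear on it.

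**Figure D2:**
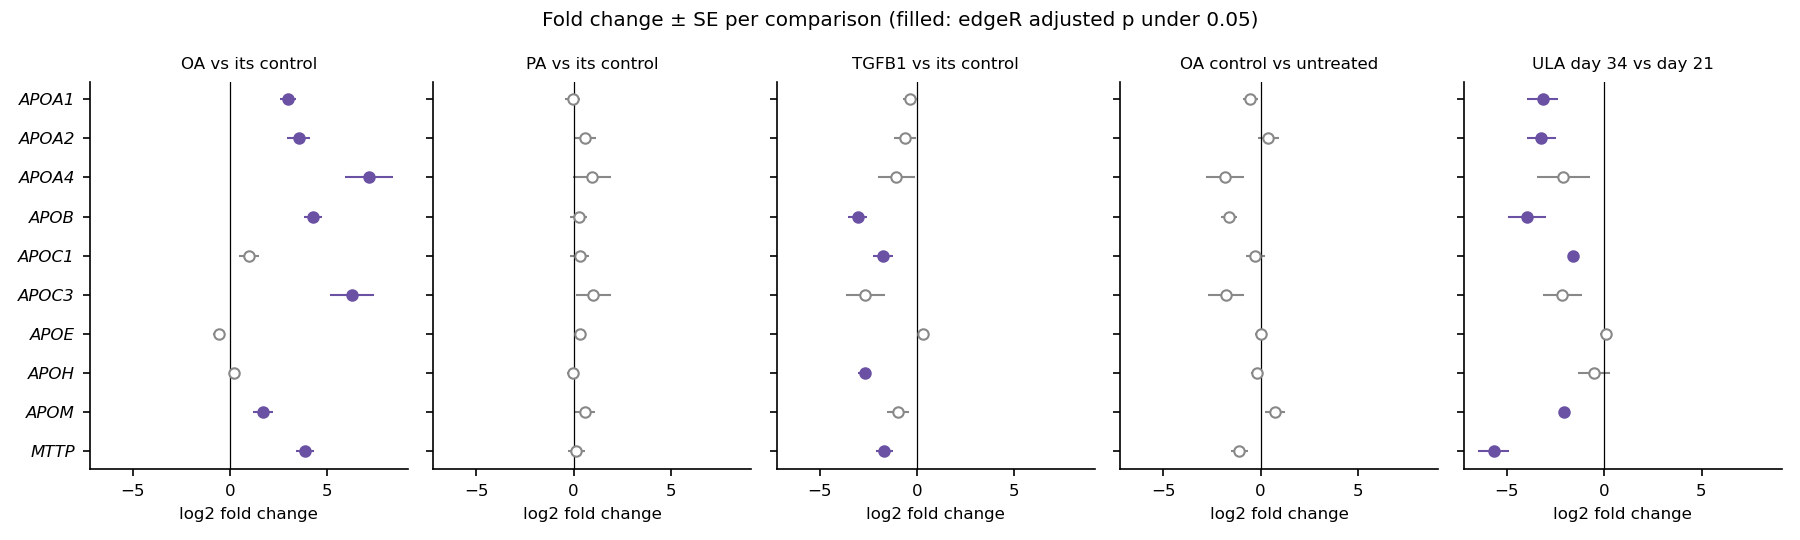
Log2 fold change ± SE of the 10 genes (rows) in 5 comparisons (panels), with filled points for an adjusted p under 0.05 in edgeR's test. OA has 7 filled points, all above 0, TGFB1 has 4 and ULA day 34 has 6, all below 0, and PA and the OA control against untreated have none.

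Cells of the OA experiment were clustered without the 10 genes and without the pathway genes listed further on. The level of a member in a cluster is therefore not set by its own use in the clustering. Cluster 8 is gut epithelial-like by its markers, with FABP2, KRT20 and MUC13 among its leading genes, as well as APOA4 and APOC3. It held 2812 cells and 61.9% of the UMIs of the OA libraries, and 59 cells and 1.82% of the UMIs of the control. Because FABP2 and other genes that define it also differ between the groups, these numbers describe the clusters and are no comparison of abundance. In the OA libraries cluster 8 held 87.6% of the APOB UMIs, 88.0% of MTTP, 85.5% of APOA1, 94.1% of APOA4 and 82.0% of APOC3. It held smaller shares of APOA2 (70.3%), APOM (78.2%), APOE (48.5%), APOC1 (42.5%) and APOH (22.5%). In the control libraries, the same cluster held 69.5% of APOA4, 34.3% of APOC3 and 21.6% of APOB.

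Levels within clusters 8 and 3 are given as a description, with no test between genes. In cluster 8, both libraries of a group pooled, MTTP was at 643.4 CPM with OA and 344.8 CPM in the control, APOB at 1137 and 627.4 CPM, and APOA1 at 2919 and 2365 CPM. APOA4 was at 6374 against 1398 CPM there, APOC3 at 1423 against 331.2 CPM, and APOA2 at 8208 against 1311 CPM. Cluster 3, a hepatocyte-like cluster led by GSTA1, FGG and TTR that also had the gut marker RBP2 among its leading genes, held 120 OA cells and 122 control cells. In it APOA1 was at 7131 against 2140 CPM, APOB at 2191 against 554 CPM, MTTP at 1093 against 214.9 CPM, APOC3 at 5623 against 402.9 CPM, APOA4 at 6040 against 360.5 CPM and APOA2 at 3313 against 1920 CPM. Of these cells, 112 of the OA group and 98 of the control came from replicate 1, so cluster 3 describes mostly 1 library of each group.

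Cluster 0, the larger hepatocyte-like cluster, held 388 OA and 764 control cells. AMBP and ITIH2 of the hepatocyte list and SPP1 of the ductal list were among its 10 leading genes. At a finer resolution, a cluster of 1928 cells with TTYH1, ONECUT1 and AMBP among its leading genes stayed unnamed, as did others. The name of cluster 0 is therefore less sure. In cluster 0 APOA2 was at 2969 CPM with OA and 276.2 CPM in the control. APOB there was at 16.4 and 10.61 CPM, MTTP at 12.57 and 13.94 CPM, and APOA1 at 143.7 and 315.3 CPM, lower with OA. In replicates 1 and 2 of OA, APOA2 in cluster 0 was at 2140 and 4021 CPM, above both control libraries at 519.4 and 192.5 CPM. APOA1 was there at 131.9 and 158.7 CPM with OA, below both control libraries at 310 and 317.1 CPM. APOA2 and APOA4 were higher with OA in each of the 8 clusters that held at least 50 cells of both groups. Mesenchymal-like cells, which should lack these genes, were taken as a rough measure of free RNA. With OA, APOA4 was at 60.86 CPM in the mesenchymal-like cluster 10, on 12 UMIs from 42 cells, against 0.5342 CPM in the control. APOA4 levels of 42.63 to 93.34 CPM in the OA cells of clusters 0, 1, 2, 4 and 12 lay around that 60.86 CPM. How far they come from free RNA was not tested. APOA2, at 50.72 CPM in the mesenchymal-like OA cells, was above that level in all 8 clusters.

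**Figure D3:**
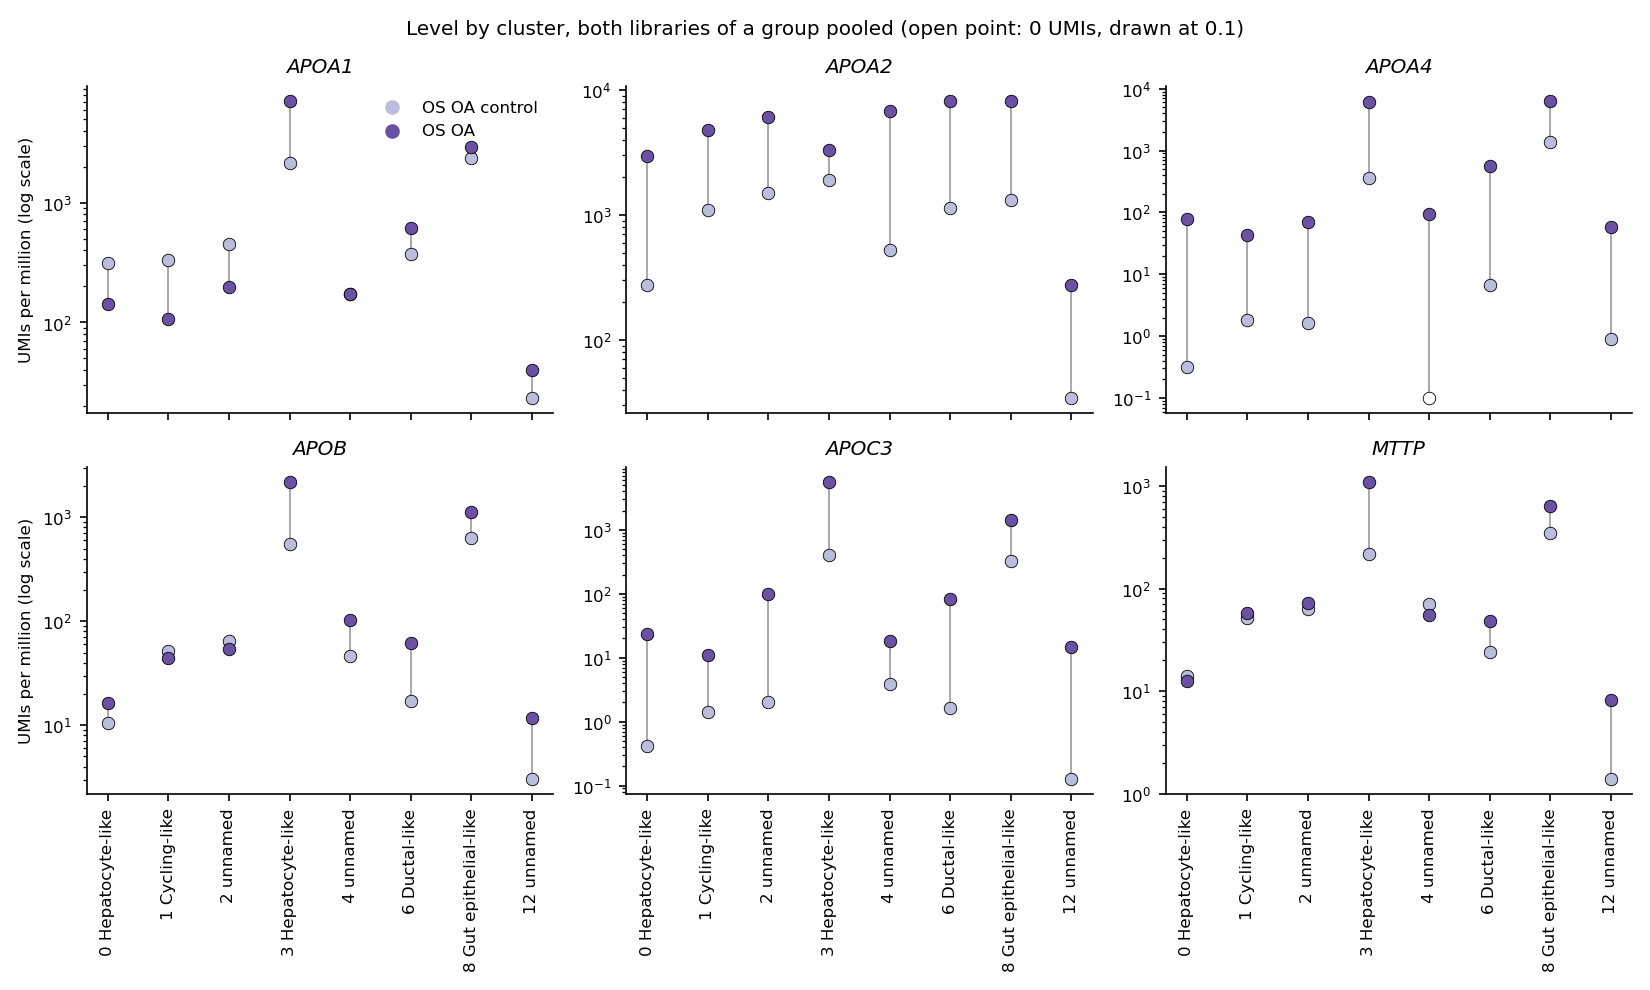
CPM (log axis) of 6 genes in the 8 clusters of the OA experiment with at least 50 cells in both groups, for OA and its control, each pooled over 2 libraries; an open point stands for 0 UMIs. APOA2 is higher with OA in every cluster shown, while APOB and MTTP reach their high levels in clusters 3 and 8.

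The share of cells with a UMI was compared after thinning each cell to 1000 UMIs, which left out 102 to 247 shallower cells per library. APOB was detected in 35.2% and 25.9% of the OA cells and in 3.34% and 1.74% of the control cells. Unthinned, these shares were 59.2%, 46.5%, 14.2% and 10.6%, at median depths of 9689, 7555, 5472.5 and 14124 UMIs. MTTP was detected in 24.7% and 17.4% of thinned OA cells against 2.69% and 1.94%, and APOA4 in 36.9% and 29.7% against 0.538% and 0.301%. APOA2 was detected in 69.0% and 74.7% against 30.9% and 12.2%. In the mesenchymal-like cells of the control, which should lack these proteins, thinned detection was at most 0.0681% for APOB and APOA4, 0.272% for MTTP and 4.22% for APOA2, at median depths of 4609 and 12656 UMIs. These values are no background for the OA libraries, where 26 and 17 mesenchymal-like cells were deep enough. Of those, 1 and 2 had an APOA4 UMI, 0 and 1 an APOA2 UMI, and none an APOB or MTTP UMI. Unthinned, 18.5% and 33.3% of the mesenchymal-like OA cells had an APOA4 UMI.

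The test was repeated on sums over classes of cells. Outside the mesenchymal-like clusters, 6 of the 10 genes rose with OA, against 43% of 17400 genes called and 22.6% higher. The log2 fold changes were 3.89 ± 0.462 for APOB, 3.49 ± 0.547 for MTTP, 2.62 ± 0.292 for APOA1, 3.18 ± 0.582 for APOA2, 6.81 ± 0.586 for APOA4 and 6.07 ± 0.238 for APOC3. APOM did not pass there (1.42 ± 0.54, adjusted p = 0.0733). Nor did APOE (-0.16 ± 0.176), APOH (-0.14 ± 0.343) or APOC1 (0.74 ± 0.548). Lower calls made up 20.3% of the genes tested there. Without replicate 1 of the control, APOA2 was at 4.01 and APOA4 at 7.69 in these cells. APOE did not pass outside the gut epithelial-like clusters (-0.38 ± 0.209) or in hepatocyte-like cells (0.21 ± 0.265) either.

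Cells outside the gut epithelial-like clusters 8 and 9 were summed as well, an alternative chosen after the data were seen. This set is not free of gut-like cells. It keeps unnamed clusters with a gut marker among their leading genes, CDX2 in cluster 2 and OLFM4 in cluster 4. There 3 genes rose, against 24.1% of 17415 genes called, 12.5% higher and 11.7% lower. These were APOA2 (2.90 ± 0.674, adjusted p = 0.0247), APOA4 (5.99 ± 0.901, adjusted p = 0.00676) and APOC3 (5.63 ± 1.47, adjusted p = 0.0351). APOB (2.78 ± 0.902, adjusted p = 0.0651), MTTP (2.20 ± 0.814, adjusted p = 0.0927), APOA1 (1.57 ± 0.682, adjusted p = 0.137) and APOM (0.78 ± 0.577, adjusted p = 0.356) did not pass there. The difference of these values from those in all cells was not tested. With 1 library left out, 0 to 5 genes were called, against 4.21% to 9.55% of all genes. APOC3 lost its call in 3 of 4 such fits and was at 1.63 (adjusted p = 0.109) without replicate 1 of OA, which held most of cluster 3. APOA4 was at 4.01 without that library, where it kept its call, and lost its call without replicate 2 of the control (6.05, adjusted p = 0.0627). APOA2 lost its call without replicate 2 of the control (2.30) or of OA (2.40), and was at 3.86 without replicate 1 of the control. APOB, MTTP and APOA1 gained a call only without replicate 2 of OA. With 1 library left out, MTTP ran from 0.62 to 2.95 and APOA1 from -0.19 to 2.35. APOB ran from 0.79 to above the 2.78 it had with all libraries. These sums include the OA cells of clusters 0, 1, 2, 4 and 12, whose APOA4 levels lay around that of mesenchymal-like OA cells. The part of free RNA in them was not tested.

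In hepatocyte-like cells (clusters 0, 3 and 5), none of the 10 genes was called for OA by edgeR, and none of 12815 genes was (0%). At an unadjusted p under 0.05 there were 6 of the 10 genes and 2710 of all genes. The log2 fold changes were 3.18 ± 1.19 for APOB, 3.32 ± 0.934 for MTTP, 2.54 ± 0.83 for APOA1, 2.20 ± 0.504 for APOA2, 5.47 ± 1.31 for APOA4 and 5.40 ± 1.87 for APOC3, with adjusted p from 0.127 to 0.202. The class held 358 and 151 OA cells and 456 and 547 control cells, and clusters 0 and 3 made up the OA cells but 1. Leaving out replicate 2 of OA gave 5 called genes, against 7.72% of all genes called in that fit, with APOB at 4.10 (adjusted p = 0.0272) and MTTP at 4.14 (adjusted p = 0.0211). Without replicate 1 of OA, which held most of cluster 3, APOB was at 0.05, APOA1 at 0.31, MTTP at 1.27, APOA4 at 2.04 and APOC3 at -1.44.

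**Figure D4:**
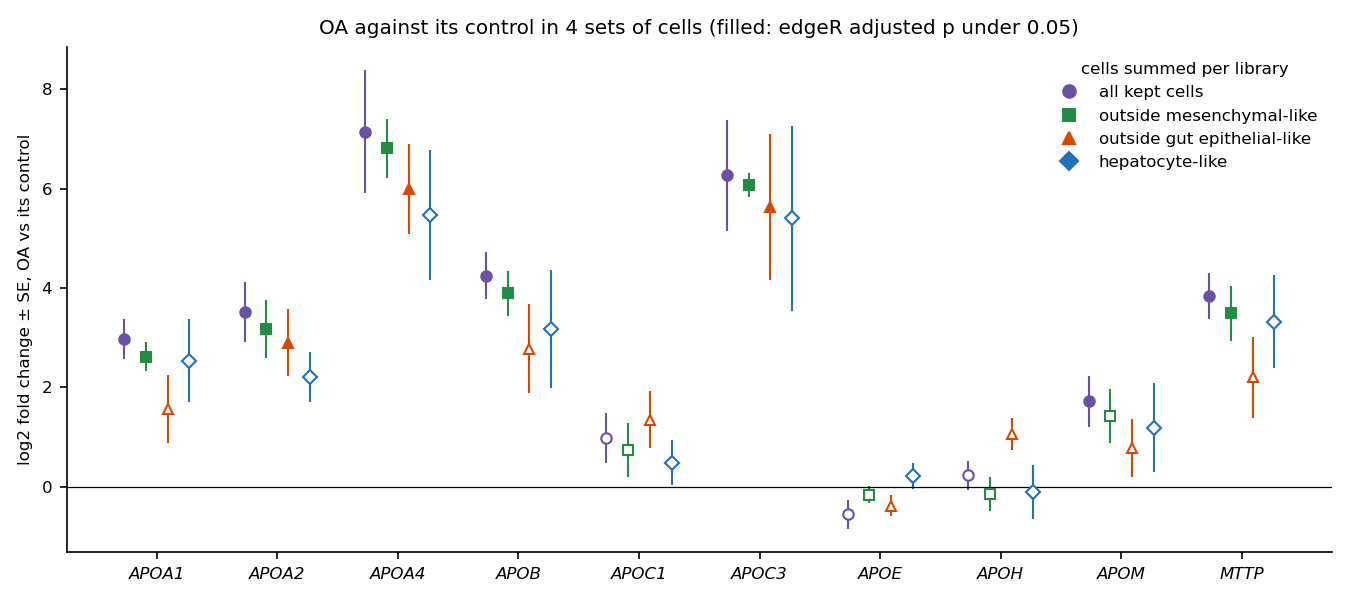
Log2 fold change ± SE of the 10 genes for OA against its control in 4 sets of cells summed per library, with filled markers for an adjusted p under 0.05 in edgeR's test. APOA4 and APOC3 stay above 5 in every set, and APOB, MTTP and APOA1 are lower outside the gut epithelial-like clusters than in all kept cells.

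The other genes of the lipoprotein pathway were read from 6 lists. Of 15 assembly and secretion genes, 11 rose with OA and 1 fell (median log2 fold change 1.36), where 43.3% of all genes were called. MIA2, which helps large cargo leave the endoplasmic reticulum, rose from 35 ± 0.141 to 129 ± 11.2 CPM (SD, n = 2 each; log2 fold change 2.22, adjusted p = 3.3e-06). CIDEB, a lipid droplet protein needed to enlarge VLDL, rose from 7.97 ± 1.69 to 87.7 ± 15.6 CPM (3.79, adjusted p = 5.4e-06), and ARFGAP1, a Golgi traffic regulator, fell by 0.60 on the log2 scale (adjusted p = 0.045). Of 12 other apolipoproteins 8 passed the filter on low counts, among them APOA5 at 0.528 CPM with OA and 0.018 CPM in the control, so their count is not read. Those with the lowest adjusted p were the lipoprotein lipase activator APOC2 (5.39, adjusted p = 9.4e-06) and APOL6 (2.85, adjusted p = 1.6e-05).

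Receptors and plasma enzymes moved in both directions. Among 13 receptor and uptake genes 3 rose and 1 fell, beside 43.3% of all genes called. The fatty acid receptor CD36 rose (5.81, adjusted p = 3.6e-06), and LRP8, a receptor for APOE, fell by 2.16 on the log2 scale (adjusted p = 0.0087). Of 11 tested lipase and transfer genes 4 rose and 2 fell. LIPC, hepatic lipase, rose (1.95, adjusted p = 3.2e-04), as did the paraoxonase PON2 (1.34, adjusted p = 0.00106). PLTP, the phospholipid transfer protein, fell from 32.2 ± 11.1 to 2.19 ± 0.492 CPM, and LCAT, the enzyme that esterifies HDL cholesterol, from 3.04 ± 0.636 to 0.728 ± 0.112 CPM (adjusted p = 1.9e-06 and 7.7e-04). Of 7 tested cholesterol efflux genes 3 rose, with ABCG1 at 2.90 (adjusted p = 7.4e-06) and NPC1 at 1.58 (adjusted p = 6.0e-05).

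Of 20 transcription regulators of hepatic and intestinal lipid genes, 9 rose with OA and 1 fell (median 0.96), a share near the 43.3% of all genes called. CREB3L3, an endoplasmic reticulum-bound factor of liver and intestine, rose from 10 ± 0.818 to 178 ± 20.6 CPM (4.48, adjusted p = 4.5e-06). NR1H4, the bile acid receptor FXR, rose (2.91, adjusted p = 3.8e-05), and FOXA2 fell by 1.08 on the log2 scale (adjusted p = 0.0133). HNF4A, named after its values were seen because of the motifs above, was at 67.8 ± 5.66 CPM with OA and 37 ± 23.6 CPM in the control and did not pass (1.17 ± 0.543, adjusted p = 0.0985).

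TGFB1, the growth factor that drives fibrosis in the liver, was followed by lower levels of 4 of the 10 genes and higher levels of none. Of 19366 genes tested 22.2% were called, 11.3% lower and 10.9% higher. The median log2 fold change of the 10 was -1.37, against -0.05 over all genes. The genes that fell were APOB, MTTP, APOH and APOC1.

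APOB was at 1.863 and 0.8673 CPM with TGFB1, on 82 and 34 UMIs, and at 13.54 and 12.59 CPM in the control. It fell by 3.05 ± 0.477 on the log2 scale (8.26-fold, adjusted p = 6.4e-04), and by 3.71 without replicate 1 of TGFB1. MTTP was at 8.814 and 9.311 CPM against 34.61 and 32.1 CPM. The replicates of MTTP lay close together in both groups, and it fell by 1.68 ± 0.438 (adjusted p = 0.0156). Its call was lost without replicate 1 of TGFB1, replicate 2 of TGFB1 or replicate 1 of the control (adjusted p = 0.112, 0.0827 and 0.0562), at a log2 fold change of -1.73 to -1.62 over all such settings.

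APOH was at 0.7042 and 1.071 CPM with TGFB1, on 31 and 42 UMIs, and at 5.757 and 7.098 CPM in the control. The groups did not overlap, and it fell by 2.69 ± 0.327 (adjusted p = 8.8e-05). APOC1 was at 16.15 and 22.37 CPM against 105.8 and 46.17 CPM, with a wide control, and fell by 1.74 ± 0.518 (adjusted p = 0.0289). This call was lost without replicate 1 of the control (-1.17, adjusted p = 0.238), replicate 1 of TGFB1 (-1.53, adjusted p = 0.2) or replicate 2 of TGFB1 (-1.98, adjusted p = 0.086).

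The HDL proteins and APOE did not pass the test. APOA1 was at 95.59 and 76.22 CPM with TGFB1, inside the control range of 71.68 to 170.9 CPM (log2 fold change -0.34 ± 0.374, adjusted p = 0.538). It was at 0.57 without replicate 2 of the control and at -0.90 without replicate 1. APOA2 was at 37.48 and 55.33 CPM against 115.3 and 52.44 CPM (-0.62 ± 0.552, adjusted p = 0.448), and APOM at 1.772 and 1.556 CPM against 2.784 and 4.458 CPM (-0.99 ± 0.575, adjusted p = 0.235). APOE was at 1171 and 1172 CPM, inside the control range of 881.1 to 1249 CPM (0.32 ± 0.3, adjusted p = 0.477).

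APOA4 and APOC3 split between the 2 TGFB1 libraries. APOA4 was at 20.92 CPM in replicate 1 and 0.5612 CPM in replicate 2 (921 and 22 UMIs), against 14.36 and 35.32 CPM in the control. APOC3 was at 3.544 and 0.2806 CPM (156 and 11 UMIs) against 3.922 and 22.25 CPM. Neither passed the test, with log2 fold changes of -1.06 ± 0.97 (adjusted p = 0.461) for APOA4 and -2.66 ± 0.995 (adjusted p = 0.0722) for APOC3. Without the filter on low counts both were called lower, and with a stricter cell filter APOC3 was. Without replicate 1 of TGFB1 both were called lower, APOA4 at -5.32 (adjusted p = 0.00444) and APOC3 at -5.44 (adjusted p = 0.0315). APOC3 was also called without replicate 1 of the control (-3.41, adjusted p = 0.0442), and was at -0.70 without replicate 2 of the control. APOA4 was at -0.09 without replicate 2 of TGFB1.

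Within the TGFB1 experiment, cluster 4 held 3507 control cells with 23.9% of the control UMIs, and 262 TGFB1 cells with 1.69% of theirs. Of its 10 leading genes 2, AFP and FGB, are on the hepatocyte list and 1, CDH17, is on the gut epithelial list, and it was classed as hepatocyte-like on that count. CEACAM6, TFF3 and AGR2, genes of gut and other mucosal epithelium, were among them too, so the class is called cluster 4 here. AFP, a leading gene of cluster 4, was itself lower with TGFB1 (log2 fold change -2.30). The cell numbers therefore describe the cluster and are no comparison of abundance. Levels within cluster 4 likewise describe only the cells assigned to it. At a finer resolution, a cluster of 1681 cells with MUC13, FABP1 and CDH17 among its leading genes had 2 markers of each list and stayed unnamed. In the control cluster 4 held 91.1% of the APOB UMIs, 83.9% of APOA1, 79.0% of MTTP, 99.2% of APOA4 and of APOC3, but 28.7% of APOE, 35.1% of APOC1 and 18.6% of APOH. With TGFB1 an unnamed cluster led by KRT7 and MMP7 held 75.9% of the UMIs, and there APOB was at 0.2057 CPM and APOA1 at 90.05 CPM. In the cells of cluster 4 themselves APOB was at 105.4 and 27.8 CPM with TGFB1 and at 55.54 and 47.07 CPM in the control. MTTP in these cells was at 122 and 70.23 CPM against 127.6 and 102.9 CPM. The groups overlapped for both genes. APOA4 in the TGFB1 cells of cluster 4 was at 1266 CPM in replicate 1 and 10.24 CPM in replicate 2.

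Summed over the cells of cluster 4, 1 of the 10 genes was called with TGFB1 and it was lower, against 0.519% of 10791 genes called, 0.176% lower and 0.343% higher. This was APOC1 (-1.88 ± 0.386, adjusted p = 0.0364), whose call was lost without replicate 1 (adjusted p = 0.512) or replicate 2 of TGFB1 (adjusted p = 0.329) and whose value was -1.27 without replicate 1 of the control. APOB (0.36 ± 0.407, adjusted p = 0.763), MTTP (-0.27 ± 0.319, adjusted p = 0.773) and APOH (0.30 ± 0.64, adjusted p = 0.884) did not pass in these cells. Outside the mesenchymal-like clusters the 4 genes called in all cells were called as well, against 20.1% of 16369 genes (10.3% lower and 9.82% higher): APOB at -3.05, APOH at -2.59, APOC1 at -1.77 and MTTP at -1.62. Without replicate 1 of TGFB1, APOB was at -3.88 and APOC1 lost its call there (-1.54, adjusted p = 0.0583). Without replicate 1 of the control, APOC1 was at -1.18. In the mesenchymal-like cells 4 of the 10 genes passed the filter on low counts and none was called (0.439% of 12079 genes called, 0.166% higher and 0.273% lower). There 1 of the 4, APOC1, and 1771 of all genes had an unadjusted p under 0.05.

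The marker lists moved with TGFB1 too. The 12 mesenchymal markers summed to 2519 to 2688 CPM against 738.3 to 824.5 CPM in the control. The gut epithelial markers summed to 159.4 to 164.1 CPM, with ALPI at 0, against 382.2 to 430.3 CPM. The hepatocyte list summed to 4569 to 5386 CPM against 3191 to 4824 CPM, although ALB fell by 4.53 (adjusted p = 0.0011) and AFP by 2.30 on the log2 scale (adjusted p = 4.4e-05). The part of these lists in the result was not tested.

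In the pathway lists, 9 of 20 transcription regulators fell with TGFB1 and none rose (median -0.97), where 22.2% of all genes were called. FOXA2, a pioneer factor of liver and gut endoderm, fell by 3.35 on the log2 scale (adjusted p = 2.0e-05), and NR0B2, the repressor SHP, by 1.5 (adjusted p = 0.00407). Among 15 assembly genes 2 rose and 1 fell, a share near the 22.2% of all genes called. SEC24D, a coat protein of vesicles leaving the endoplasmic reticulum, rose (1.02, adjusted p = 0.00475), and so did P4HB, the small subunit that pairs with MTTP (0.77, adjusted p = 0.00884). PLA2G12B, which helps load lipid onto APOB particles, fell by 3.18 (adjusted p = 0.00109). Of the other apolipoproteins only CLU was called, and APOA5 and APOC2 had no UMI in any TGFB1 or control library. CLU, a secreted chaperone, fell from 927 ± 232 to 70.9 ± 2 CPM (adjusted p = 1.4e-05).

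The next counts stand beside 22.2% of all genes called with TGFB1, 10.9% higher and 11.3% lower. Of 13 receptor genes 1 rose and 3 fell. Among them the endocytic receptor LRP2 fell by 3.49 (adjusted p = 0.00327), while the receptor chaperone LRPAP1 rose (0.94, adjusted p = 0.028). Of 11 tested lipase and transfer genes 4 rose and 2 fell. Among them PLTP rose (1.34, adjusted p = 0.00219), PON2 rose (1.34, adjusted p = 0.00261), and LIPC fell by 3.21 (adjusted p = 4.3e-05). Of 7 tested efflux genes ABCG1 (2.54, adjusted p = 6.0e-05) and ABCA1 (1.52, adjusted p = 1.3e-04) rose and SOAT1, which esterifies cholesterol for storage, fell by 1.23 (adjusted p = 0.00103).

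With PA none of the 10 genes was called, on a background of 0.0465% of 19366 genes, all higher. DESeq2 also called none of the 10, and 51 genes in all. At an unadjusted p under 0.05 there were 0 of the 10 genes and 540 of all genes by edgeR. The median log2 fold change of the 10 was 0.31, against 0.02 over all genes, and 8 of 10 were above 0.

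APOA2 was at 1005 and 1314 CPM with PA against 1035 and 518.2 CPM in the control (log2 fold change 0.61 ± 0.549). APOA4 was at 91.43 and 142.9 CPM against 83.89 and 40.9 CPM (0.95 ± 0.962), and APOC3 at 116.7 and 131.9 CPM against 108.7 and 16.52 CPM (1.02 ± 0.906). The groups did not overlap for APOA4 and APOC3, but the control libraries of each lay far apart. With replicate 1 of the PA control left out, APOC3 was at 3.04, APOA4 at 1.65 and APOA2 at 1.29, and with replicate 2 left out they were at 0.20, 0.49 and 0.17. APOE, at 3407 and 2411 CPM with PA and 2880 and 1916 CPM in the control, had its highest levels of the series in this experiment (0.32 ± 0.3). APOB stayed low, at 12.52 and 17.67 CPM against 12.94 and 13.23 CPM (0.27 ± 0.43), as did MTTP, at 17.61 and 23.41 CPM against 18.17 and 20.49 CPM (0.14 ± 0.433). APOA1 was at 636.5 and 517.9 CPM against 552.3 and 693.7 CPM (-0.05 ± 0.373), and APOH, APOM and APOC1 had log2 fold changes of -0.03 ± 0.293, 0.59 ± 0.523 and 0.31 ± 0.503.

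By cluster, most UMIs of APOA4 and APOC3 in the PA experiment lay in 1 unnamed cluster led by PHGR1, TFF2 and TFF3, which held 896 PA cells and 507 control cells. It held 89.3% of APOA4 and 89.2% of APOC3 UMIs with PA, 91.1% and 84.3% in the control. In it APOA4 was at 1166 and 1404 CPM with PA and at 878.8 and 365.6 CPM in the control, and APOA2 at 6132 and 7293 CPM against 5271 and 2696 CPM. APOC3 was at 1565 and 1279 CPM against 1072 and 126.8 CPM. The lowest value of each gene was in replicate 2 of the control, and replicate 1 lay nearer to the PA libraries. The hepatocyte-like class of this experiment is 1 cluster with a weak marker basis. FGB was the 1 hepatocyte marker among its 10 leading genes, beside UNC5B-AS1, TCN1, HPGD and AGR2. Its 50 leading genes held 3 hepatocyte and 2 gut epithelial markers. These hepatocyte-like cells held 37.7% of APOA1 UMIs with PA, at 930.2 CPM against 1177 CPM in the control. None of the 10 genes was called in hepatocyte-like cells (0.0821% of 13395 genes called; 2 of the 10 and 291 of all genes at an unadjusted p under 0.05). None was called outside mesenchymal-like cells either (0.102% of 16599 genes; 0 of the 10 and 370 of all genes at an unadjusted p under 0.05). In mesenchymal-like cells 5 of the 10 genes passed the filter on low counts and none was called, on a background of 0.0101% of 9949 genes. There 4 of the 5 and 234 of all genes had an unadjusted p under 0.05. The filter can pass a gene through 1 group alone, and APOA4 was near 0 in the control. These counts are therefore no comparison of the members with all genes. APOA4 in these cells was at 268.4 CPM in replicate 1 of PA, 7.177 CPM in replicate 2, and 0 and 0.5544 CPM in the control. The high level lay in 1 library, where 1.76% of these cells had an APOA4 UMI before thinning, against 3.66% in the other. No gene of the 6 pathway lists was called with PA. Gut epithelial markers summed to 376.8 to 499.7 CPM with PA and 398.2 to 413 CPM in its control.

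The effects of OA and PA, both at 500 µM and sampled on day 25, were compared in 1 model as the difference of the 2 effects. These differences were called for 6 of the 10 genes, all higher with OA, against 20.5% of 19366 genes called, 10.2% higher and 10.3% lower. The difference was 3.98 ± 0.614 for APOB, 3.70 ± 0.62 for MTTP, 3.02 ± 0.539 for APOA1, 6.20 ± 1.45 for APOA4, 5.25 ± 1.34 for APOC3 and 2.91 ± 0.789 for APOA2 on the log2 scale. For APOM (1.13 ± 0.725), APOC1 (0.67 ± 0.709), APOH (0.26 ± 0.416) and APOE (-0.88 ± 0.424) the difference did not pass, with adjusted p from 0.161 to 0.702. Of the 8 libraries in this comparison, leaving out 1 at a time kept the call each time for APOB, MTTP and APOA1. APOA4 lost it without replicate 2 of the OA control (5.61), and was at 7.18 without replicate 1 of that control and 5.51 without replicate 1 of the PA control. APOA2 lost it without replicate 2 of the OA control (2.34), replicate 2 of OA (2.75), replicate 1 of the PA control (2.23) or replicate 1 of PA (2.72), and was at 3.84 without replicate 1 of the OA control. APOC3 lost it without any of 5 libraries, with its lowest value, 3.23, without replicate 1 of the PA control. The others were replicates 1 and 2 of the OA control (5.14 and 5.36) and of PA (5.15 and 5.34), and APOC3 was at 6.02 without replicate 2 of the PA control. Against TGFB1 the effect of OA was higher for 9 of the 10 genes (31.8% of all genes called, 16.4% higher and 15.4% lower), and for APOE it did not pass (-0.88 ± 0.424, adjusted p = 0.133). The experiments were run with separate controls, so the agent and the experiment cannot be told apart in these differences.

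The OA control was also compared with the untreated OS organoids. None of the 10 genes was called by edgeR, on a background of 0.573% of 19366 genes, 0.491% lower and 0.0826% higher. At an unadjusted p under 0.05 there were 2 of the 10 and 2822 of all genes, and DESeq2 called 1 of the 10 and 701 genes. APOB was at 62.33 and 43.64 CPM in the OA control and 103.5 and 252.1 CPM in untreated organoids (log2 fold change -1.62 ± 0.421, adjusted p = 0.105), and was the gene called by DESeq2 (adjusted p = 0.00551). APOB was at -0.73 without replicate 2 of the untreated group. MTTP was at 44.43 and 34.87 CPM against 42.57 and 141.1 CPM (-1.09 ± 0.425, adjusted p = 0.266). It was called without replicate 1 of the untreated group (-1.74, adjusted p = 0.0307) and was at 0.13 without replicate 2.

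APOA4 was at 52.81 and 19.91 CPM in the OA control against 178.2 and 120 CPM untreated (-1.84 ± 0.977, adjusted p = 0.409), and APOC3 at 15.42 and 20.05 CPM against 66.06 and 66.12 CPM (-1.76 ± 0.918, adjusted p = 0.4). APOA4 was at -2.83 without replicate 1 of the OA control and -1.26 without its replicate 2. For both, the groups did not overlap and the spread shared by the OS groups was wide. Without the filter on low counts edgeR called both lower, APOA4 at -1.83 (adjusted p = 5.4e-07) and APOC3 at -1.75 (adjusted p = 2.8e-07). AFP was called lower in the OA control (-2.11 ± 0.253, adjusted p = 0.0106). This comparison shares the OA control libraries with the comparison of OA. The OA libraries were above the untreated libraries too, with APOB at 685.7 CPM or more against at most 252.1 CPM and APOA4 at 4192 CPM or more against at most 178.2 CPM.

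Between day 21 and day 34 in ULA plates, 6 of the 10 genes were lower at the later day and none was higher. Of 22261 genes tested 15.6% were called, 7.19% lower and 8.43% higher. The median log2 fold change of the 10 was -2.13, against 0.01 over all genes. The day 34 organoids also had an added wash and 10 more minutes of trypsin, so the day and the dissociation cannot be told apart.

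MTTP was at 106.5, 78.61 and 119.9 CPM on day 21 and at 0.5416 and 3.751 CPM on day 34. It fell by 5.67 ± 0.796 on the log2 scale (adjusted p = 0.00609), the largest fitted change of the 10. With replicate 2 of day 34 alone the log2 fold change of MTTP was -4.87, and with replicate 1 alone -7.68. APOB was at 69.73, 55.44 and 82.3 CPM on day 21 and at 0.6077 and 9.072 CPM on day 34, and fell by 3.95 ± 0.964 (adjusted p = 0.0347). APOA1 was at 716.4, 805.4 and 728.2 CPM on day 21 and at 18.94 and 162.3 CPM on day 34, and fell by 3.16 ± 0.807 (adjusted p = 0.0394). The day 21 libraries lay close together for all of these, and the 2 day 34 libraries differed several-fold. APOA2 was at 547.5, 415 and 454.8 CPM against 14.74 and 94.92 CPM, a fall of 3.22 ± 0.723 (adjusted p = 0.027). Without any 1 of the day 21 libraries, APOA1, APOA2 and APOB lost their call (adjusted p from 0.0739 to 0.126). With replicate 2 of day 34 alone they were at -2.32, -2.42 and -3.04, and with replicate 1 alone at -5.44, -5.13 and -6.96.

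APOM was at 19.56, 20.49 and 18.09 CPM on day 21 and at 3.91 and 6.044 CPM on day 34, a fall of 2.07 ± 0.237 (adjusted p = 0.00309). APOC1 was at 74.29, 84.13 and 65.98 CPM against 24.53 and 29.24 CPM, a fall of 1.59 ± 0.184 (adjusted p = 0.00319). Both kept their call whichever library was left out. APOE was at 1428, 1337 and 1093 CPM on day 21 and at 1027 and 1943 CPM on day 34 (0.09 ± 0.294, adjusted p = 0.854). APOA4, at 56.21, 20.32 and 34.6 CPM against 0.07926 and 18.43 CPM, did not pass (-2.10 ± 1.37, adjusted p = 0.33), nor did APOC3 (-2.15 ± 1, adjusted p = 0.184). APOA4 was at -8.97 (adjusted p = 2.2e-06) and APOC3 at -6.08 (adjusted p = 6.7e-07) with replicate 1 of day 34 alone, where they had 6 and 9 UMIs. APOC3 was called at -1.21 (adjusted p = 0.00686) with replicate 2 alone. APOH was at 0.3517 to 0.5388 CPM on day 21, on 26 to 46 UMIs a library, and on 3 and 53 UMIs on day 34. Its log2 fold change was -0.52 ± 0.813 (adjusted p = 0.701), and -3.52 (adjusted p = 0.0022) with replicate 1 of day 34 alone.

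In these organoids hepatocyte-like cluster 4 held 3245 cells on day 21, with 33.5% of the UMIs and 97.2% to 99% of the UMIs of APOA1, APOA2, APOA4, APOB, APOC3, APOH and MTTP. The cluster also held 98.0% of the UMIs of the gut marker FABP2. On day 34 it held 1232 cells with 7.76% of the UMIs, of which 48 cells were in replicate 1 and 1184 in replicate 2. Within it, MTTP was at 278.6, 295.1 and 307.7 CPM in the day 21 libraries and at 25.4 CPM in replicate 2 of day 34. APOB was at 182.1, 206 and 211.2 CPM on day 21 and 54.87 CPM in that library, and APOA1 at 1863 to 3030 CPM against 1006 CPM. APOA4 was at 74.62 to 144.9 CPM on day 21, a range that includes its 118.7 CPM in that day 34 library. With 1 library of at least 50 such cells on day 34, these values have no test. At a finer resolution, a cluster of 1223 cells led by FABP1, TSPAN8 and PHGR1 was named gut epithelial-like. The hepatocyte-like clusters then held 788, 463 and 771 cells on day 21, where cluster 4 held 1251, 679 and 1315. On day 34 they held 34 and 959 cells. Cluster 4 may therefore mix both kinds of cell in shares that differ by day, and its cell numbers are no comparison of abundance. APOE was spread over clusters, with 34.9% of its UMIs in the hepatocyte-like cluster on day 21 and 10.4% on day 34. Gut epithelial markers summed to 212.3 to 414.3 CPM on day 21 and to 3.501 to 49.42 CPM on day 34, with ALPI at 0. Squamous markers summed to 23.77 to 42.51 CPM on day 21 and 474.2 to 1958 CPM on day 34, and cycling markers to 1306 to 1388 CPM and 573.2 to 828.3 CPM. Mesenchymal markers summed to 2257 to 2867 CPM and 2915 to 4931 CPM. The part of these lists in the result was not tested. ALB fell by 4.85 on the log2 scale (adjusted p = 0.00632).

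In the pathway lists, 11 of 20 transcription regulators were lower on day 34 and 1 was higher. HNF4G, an HNF4 factor of the gut, fell by 2.97 (adjusted p = 0.00162) and the nuclear receptor PPARG by 2.24 (adjusted p = 0.00344), while the coactivator PPARGC1A rose (1.01, adjusted p = 0.0465). Of 15 assembly genes 5 were lower and none higher, among them PLA2G12B, by 5.27 (adjusted p = 0.00622). Over all genes tested 15.6% were called. Other lists held genes that rose, namely the apolipoprotein genes APOD (1.66, adjusted p = 0.0266) and APOL1 (1.83, adjusted p = 0.0343), the heparan sulfate proteoglycan SDC1 (1.14, adjusted p = 0.0467) and NPC1 (0.66, adjusted p = 0.0373). LRP2, LIPC, SOAT1 and SOAT2 were called lower.

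Across the 14 OS libraries, members differed in how alike their levels were, by Pearson's r of log2(CPM + 1). These are descriptions, since libraries of 1 experiment share their batch and the OA libraries stand apart for most genes. APOB and MTTP had an r of 0.96, APOA4 and APOC3 0.95, and APOA2 and APOM 0.95. APOE had its lowest r with MTTP (-0.77) and APOB (-0.71). Its r was -0.44 with APOA4, -0.38 to -0.24 with APOM, APOA2, APOC1, APOC3 and APOA1, and 0.58 with APOH. Among genes outside the 10, those most like APOB were SULT1B1 (0.993), RBP2 (0.990) and CD302 (0.988). For MTTP they were CA2 (0.990), B3GALT5 (0.984) and AC019117.1 (0.983), for APOA1 ZMYND15 (0.956), ALB (0.955) and GCOM1 (0.952), and for APOE TUBD1 (0.973), LINC02253 (0.970) and CALY (0.962).

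APOE was also found in mesenchymal-like cells. In the OA control the mesenchymal-like cluster 11 held 29.7% of the APOE UMIs at 1924 CPM, against 0.492% of the APOA1 UMIs at 16.35 CPM. In hepatocyte-like cluster 0 of the same libraries APOE was at 677.7 CPM. With OA, APOE was at 278.5 CPM in cluster 8, where most UMIs of APOA1, APOB and MTTP lay, and at 713.8 CPM in cluster 0. In the PA experiment APOE was at 945.9 to 3608 CPM in every cluster of the control, including 945.9 CPM in mesenchymal-like cells.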

How the data were processed

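Human liver organoid cells were measured in 19 droplet libraries. The authors deposited a matrix of UMI counts for each library, genes by barcodes, with no normalization, per the file headers and values. The matrix headers name Cell Ranger 6.0.2 for the OA, OA control and untreated libraries and give version 3.0.2 for the others, and the submitters' processing notes name bcl2fastq, Cell Ranger 3.0.2, Scanpy and GRCh38. Every deposited barcode held at least 500 UMIs. Each set of matrices lists its own number of genes (58721, 33538 or 36601).

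Counts of the kept cells were summed per library and tested with edgeR 4.0.16 (R 4.3.3; quasi-likelihood test, TMM scaling, filterByExpr, Benjamini-Hochberg adjustment over all genes tested, threshold 0.05). This is the source of every adjusted p unless DESeq2 1.42.0 is named. The 14 OS libraries shared 1 fit over 32732 genes and the 5 ULA libraries had another. Fold changes use TMM-scaled library sizes and CPM do not, so their ratios can differ. Cells were clustered per experiment with scanpy 1.11.5 and leidenalg 0.10.2 (2000 variable genes, 30 components, resolution 0.5) without the 10 genes, the pathway lists, mitochondrial or ribosomal protein genes, and clusters were named from marker lists. The names are rebuilt and may differ from the study's. Class sums needed 50 cells a library, and leaving 1 of 2 libraries assumes the lone one varies like the others. Predicted doublets were kept in the main values and removed in an alternative.

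The 10 genes and all lists were chosen with earlier results of these data known. The text names all 10 genes, ALB, AFP and COL1A1, and from each list up to 2 called genes per direction with the lowest adjusted p in the TGFB1, PA and OA comparisons. Some genes that this rule picks are not reported here. The genes named for the ULA comparison follow the same ranking but were chosen after their values were seen. The test was first tested on simulated data. Depth limits the low genes, as given by their UMIs.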

Additional observations from a re-analysis of the deposited data

Results flagged for a closer look

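For 6 of the 10 genes the effect of OA differed from the effect of PA by the test of the difference itself in edgeR's model, which called 20.5% of all genes, 10.2% higher. The OA effect minus the PA effect, on the log2 scale, was 3.02 ± 0.539 for APOA1 (adjusted p = 0.00207), 2.91 ± 0.789 for APOA2 (0.0198), 6.20 ± 1.45 for APOA4 (0.00963), 3.98 ± 0.614 for APOB (9.1e-04), 5.25 ± 1.34 for APOC3 (0.0146) and 3.70 ± 0.62 for MTTP (0.00141). Both OA libraries lay above both OA control libraries for all 6, while PA and its control overlapped for APOA1, APOA2, APOB and MTTP. The 6 were called on these same libraries, so this order is a description and no further support. Its share over all genes was not computed. APOC3 lost its call without replicate 1 (5.14) or 2 (5.36) of the OA control, replicate 1 of the PA control (3.23), or replicate 1 (5.15) or 2 (5.34) of PA, and was at 6.02 without replicate 2 of the PA control. APOA2 lost it without replicate 2 of the OA control (2.34), replicate 2 of OA (2.75), replicate 1 of the PA control (2.23) or replicate 1 of PA (2.72), and was at 3.84 without replicate 1 of the OA control. APOA4 lost it without replicate 2 of the OA control (5.61), and was at 7.18 without replicate 1 of the OA control and 5.51 without replicate 1 of the PA control.

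For 9 of the 10 genes the effect of OA differed from that of TGFB1, in a test that called 31.8% of all genes, 16.4% higher. The OA effect minus the TGFB1 effect was 3.31 ± 0.541 for APOA1 (adjusted p = 5.0e-04), 4.14 ± 0.805 for APOA2 (0.00169), 8.21 ± 1.52 for APOA4 (0.00122), 7.29 ± 0.665 for APOB (6.8e-06), 8.93 ± 1.47 for APOC3 (5.3e-04) and 5.52 ± 0.637 for MTTP (3.6e-05). It was 2.92 ± 0.439 for APOH (2.7e-04), 2.73 ± 0.721 for APOC1 (0.0112) and 2.72 ± 0.769 for APOM (0.0163). APOC1 lost its call without replicate 2 of the OA control (2.39), replicate 1 of the TGFB1 control (2.10) or replicate 1 of TGFB1 (2.51). APOM lost it without replicate 2 of the OA control (2.26), replicate 1 of OA (2.38), replicate 2 of the TGFB1 control (2.15) or replicate 2 of TGFB1 (2.61), and was at 3.37 without replicate 1 of the OA control. APOA1 was at 2.39 without replicate 2 of the TGFB1 control. APOA2 was at 5.07 without replicate 1 of the OA control and 3.55 without replicate 1 of the TGFB1 control, and APOB at 7.96 without replicate 1 of TGFB1. APOA4 ran from 7.25 without replicate 2 of the TGFB1 control to 12.47 without replicate 1 of TGFB1, and APOC3 from 6.97 to 11.71 without the same libraries.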

How the results depend on the processing

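For OA, 7 genes were called with DESeq2, all deposited barcodes, a stricter cell filter, doublets removed or a replicate block, 8 without a filter on low counts, 9 with only the libraries of the 2 groups (8 higher, and APOE lower at -0.61, adjusted p = 0.0142) and 3 outside the gut epithelial-like clusters. The share of all genes called for OA moved too, from 43.3% to 31.3% without the filter, 60.6% with only the libraries of the 2 groups, 37.4% with the block, 24.1% outside the gut epithelial-like clusters and 25.8% to 32.8% with 1 library left out. Leaving out 1 library at a time gave 6 to 7 for OA, 2 to 4 for TGFB1 (8.41% to 27.7% of all genes), 0 for PA (0% to 0.099%), 0 to 1 for the OA control against untreated (0% to 0.81%), 3 to 9 for ULA (3.17% to 30.7%), 3 to 6 for OA against PA (10.5% to 16.8%) and 7 to 9 for OA against TGFB1 (21.2% to 34.2%). In hepatocyte-like cells it gave 0 to 5 for OA (0% to 7.72% of all genes) and 0 to 1 for PA (0.0751% to 1.03%), and in cluster 4 of the TGFB1 experiment 1 to 5 (0.0981% to 31.2%). Outside mesenchymal-like cells it gave 6 for OA (16.1% to 23.8%), 0 to 3 for PA (0.301% to 2.15%) and 5 to 8 for TGFB1 (9.51% to 57.1%). Outside the gut epithelial-like clusters it gave 0 to 5 for OA (4.21% to 9.55%), a check chosen after the data were seen. APOA1 ran there from -0.19 to 2.35. Without the filter on low counts 7 genes were called for TGFB1 (18.9% of all genes), 1 for PA (0.583%) and 4 for the OA control against untreated (1.88%), where DESeq2 called 1. Over all genes, DESeq2 called 701 against 111 for the OA control and 51 against 9 for PA. In all kept cells, in hepatocyte-like cells for OA and in cluster 4 for TGFB1, leaving out 1 library turned the sign of the following results, none of them called with all libraries. For OA, APOH ran from -0.04 to 0.57. For the OA control against untreated, APOA2 ran from -0.54 to 1.27, APOC1 from -0.93 to 0.99, APOE from -0.11 to 0.14, APOH from -0.52 to 0.12 and MTTP from -1.74 to 0.13. For OA against PA, APOH ran from -0.02 to 0.59. For PA, APOA1 ran from -0.20 to 0.09, APOB from -0.004 to 0.50, APOC1 from -0.003 to 0.74, APOH from -0.16 to 0.10, APOM from -0.10 to 1.05 and MTTP from -0.08 to 0.34. For TGFB1, APOA1 ran from -0.90 to 0.57, and in cluster 4 APOB from -0.86 to 1.00, APOH from -0.93 to 1.02, MTTP from -0.69 to 0.04, APOA1 from -1.23 to 1.14, APOM from -0.33 to 0.24, APOE from -0.01 to 0.50, APOA4 from -3.36 to 3.52 (called in 4 of 4 settings) and APOC3 from -3.66 to 2.62 (called in 2). In hepatocyte-like cells with OA, APOC3 ran from -1.44 to 6.41, APOM from -0.96 to 2.00, APOH from -1.28 to 0.55 and APOE from -0.08 to 0.45. For ULA, APOE ran from -0.46 to 0.49 and APOH from -3.52 to 0.36. The cause was not tested.

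The replicate numbers did not pair the samples: the correlation of same-numbered deviations ran from -0.44 to 0.0887. With the number as a replicate block, 7 genes were called for OA, 3 for TGFB1 (16.2% of all genes), 0 for PA (0.0207%), 0 for the OA control (0%), 4 for OA against PA (15%), 9 for OA against TGFB1 (26.1%) and 0 for ULA (0%), where APOE was at -0.07 and the lowest adjusted p, for APOM and APOC1, was 0.0791. With crossed pairing, added after the data were seen, 5 genes were called for TGFB1 (21.5% of all genes) and 0 for the OA control (0.145%). Thinned to 2000 in place of 1000 UMIs, the median share of cells with a UMI, over genes and libraries, was 4.36% in place of 2.46%. At resolution 1.0 the sums of hepatocyte-like clusters were not run for TGFB1 or OA, which had too few cells.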
